A study of Mus musculus with 4 samples.

Results

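Oxidative phosphorylation is the set of reactions by which mitochondria pass electrons from NADH and succinate to oxygen, pump protons across their inner membrane, and use the returning protons to make ATP. Its 5 protein complexes are built from subunits of both genomes: most are encoded in the nucleus and imported, while the mitochondrial DNA encodes the hydrophobic core of complexes I, III, IV and V. In the brain this pathway supplies most of the ATP that neurons spend on ion pumping and synaptic signalling, and complex II is the only complex with no mitochondrially encoded subunit.

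The genes described here were taken by symbol: the numbered Nduf a, b, c, s and v genes, Sdha to Sdhd, all Uqcr, Cox4 to Cox8 and Atp5 genes, and the mitochondrial Nd, Co, Atp and Cytb genes, without pseudogene names. Among the 55341 genes counted, 101 symbols matched, and 87 of them reached 1 CPM in 2 or more of the 4 libraries, where CPM is the count per 1000000 counts after TMM scaling between libraries. These 87 members, 77 nuclear and 10 mitochondrial, were all among the 16617 genes tested. Poly(A)-enriched RNA of the whole cerebellum was sequenced at postnatal day 14 from 2 Kdm6b-cKO mice and 2 WT littermates, each library coming from 1 mouse. The question was how loss of KDM6B, a demethylase of lysine 27 of histone H3, altered gene expression during granule neuron maturation. Both genotypes carried floxed Kdm6b alleles (Kdm6b fl/fl), and the cKO mice carried Atoh1-Cre in addition, so the deletion was driven in granule neuron precursors while the RNA came from every cell of the tissue. Fewer cells of a type and less RNA per cell cannot be told apart in such samples.

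The libraries held 8811849 to 9892363 counts in genes, of which the members took 2.48% and 2.58% in cKO and 2.77% and 2.66% in WT. Kdm6b itself had 127 and 119 CPM in cKO, against 154 and 154 CPM in WT (log2 fold change -0.33, adjusted p = 0.0162 by edgeR's quasi-likelihood test with Benjamini-Hochberg adjustment). Counts taken over whole exons of the whole tissue do not isolate the deleted part in granule neurons. WT 1 had 233 CPM over 4 Y-linked genes, against 0.672 CPM or less in each other library, and nearly lacked Xist (0.431 CPM, against 1359 to 1599 CPM in the other 3), so sex ran in part with genotype. The cKO 1 library stood apart in markers of choroid plexus epithelium, a secretory epithelium beside the cerebellum that is rich in mitochondria. The summed level of that list was 719 CPM in cKO 1 and 46.4 CPM in cKO 2, against 41.3 and 42.4 CPM in WT.

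The calls went opposite ways by genome of origin. In the test across all genes 3 of 87 members rose and 3 fell in cKO. The 3 that rose, Ndufb8, Ndufb3 and Atp5e, are nuclear and encode small supernumerary or stalk subunits. The 3 that fell, mt-Co1, mt-Nd5 and mt-Nd6, are mitochondrial. Over all tested genes 1.87% rose and 2.17% fell, against 3.45% of the members in each direction, so few members were called in either set. At an unadjusted p under 0.05 there were 15 members higher (17.2%) and 6 lower (6.90%) in cKO, beside 7.81% higher and 8.5% lower over all tested genes. The median log2 fold change was 0.05 over the nuclear members and -0.20 over the mitochondrially encoded ones, beside 0.00 over all tested genes.

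**Figure D1:**
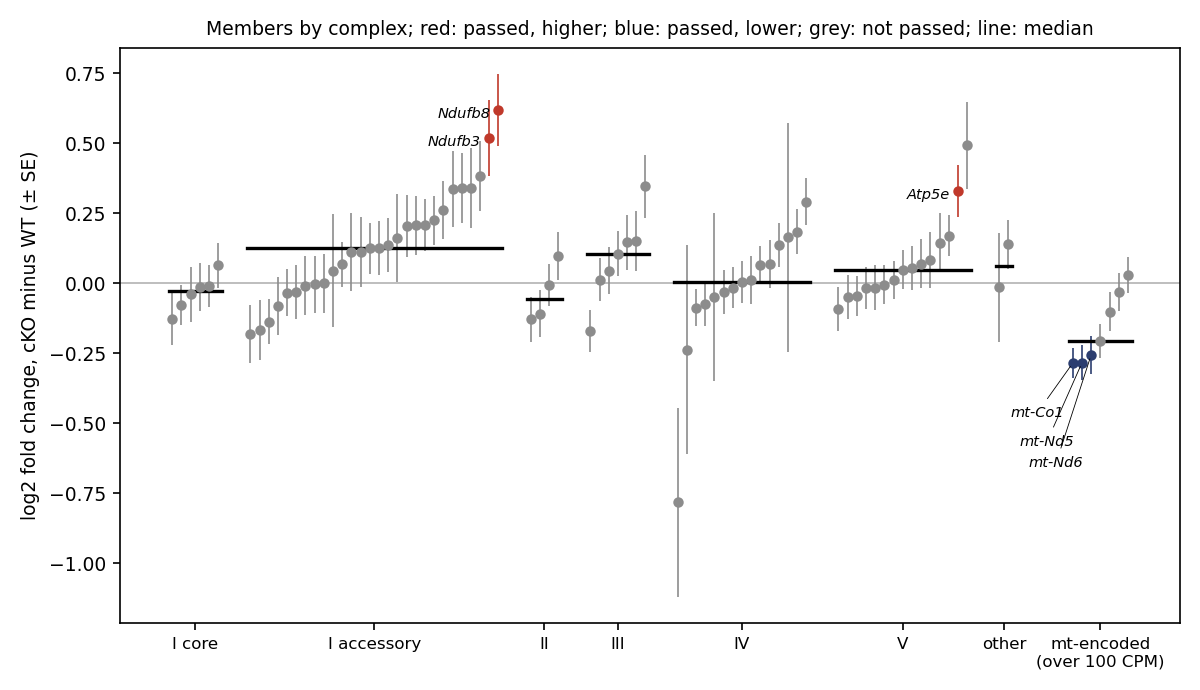
Log2 fold change (cKO minus WT, bars ± SE) of each nuclear member by complex, and of the 7 mitochondrially encoded members over 100 CPM. Black lines are group medians; the accessory subunits of complex I had a median of 0.13, the 6 core subunits -0.03, and the mitochondrially encoded set -0.21.

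The mitochondrial DNA is transcribed as long precursors from both strands, from which the mRNAs are released, and all but mt-Nd6 lie on the same strand. The mt-Co1 transcript encodes the catalytic subunit of cytochrome c oxidase (complex IV), which reduces oxygen. It had 6639 and 7010 CPM in cKO, against 8553 and 8071 CPM in WT. The groups did not overlap, and mt-Co1 fell by 0.28 on the log2 scale (SE 0.05, adjusted p = 0.00374 by edgeR).

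Within complex I, mt-Nd5 and mt-Nd6 encode core subunits of the membrane arm. The mt-Nd5 level was 2090 and 2217 CPM in cKO, against 2671 and 2572 CPM in WT, and it fell by 0.28 (SE 0.06, adjusted p = 0.0105). The mt-Nd6 level was 715 and 711 CPM in cKO, against 854 and 848 CPM in WT, and it fell by 0.26 (SE 0.07, adjusted p = 0.0369). Both were lower in each cKO library than in each WT library. The annotated genes overlap at their ends on opposite strands (2.7% of mt-Nd6), and no source used here says whether reads were counted by strand. Per kilobase, mt-Nd6 had 1507 CPM and mt-Nd5 1309 CPM on average over the 4 libraries. How far reads of one gene were counted for the other was not tested, so the 2 calls may not be independent.

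The other complex I core transcripts of the same genome had smaller differences. The mt-Nd1 level was 2016 and 2078 CPM in cKO, against 2084 and 1923 CPM in WT (log2 fold change 0.03, SE 0.06, adjusted p = 0.875). For mt-Nd2 it was 1149 and 1235 CPM in cKO, against 1341 and 1215 CPM in WT (-0.10, adjusted p = 0.524). For mt-Nd4 it was 1428 and 1372 CPM in cKO, against 1492 and 1366 CPM in WT (-0.03, adjusted p = 0.886). Groups overlapped for all of mt-Nd1, mt-Nd2 and mt-Nd4, and none passed. Cytochrome b (mt-Cytb), the haem-carrying core of complex III, lay between these sets, with 2894 and 3069 CPM in cKO and 3508 and 3373 CPM in WT. Its groups did not overlap but it missed the threshold (-0.21, SE 0.06, adjusted p = 0.0565).

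**Figure D2:**
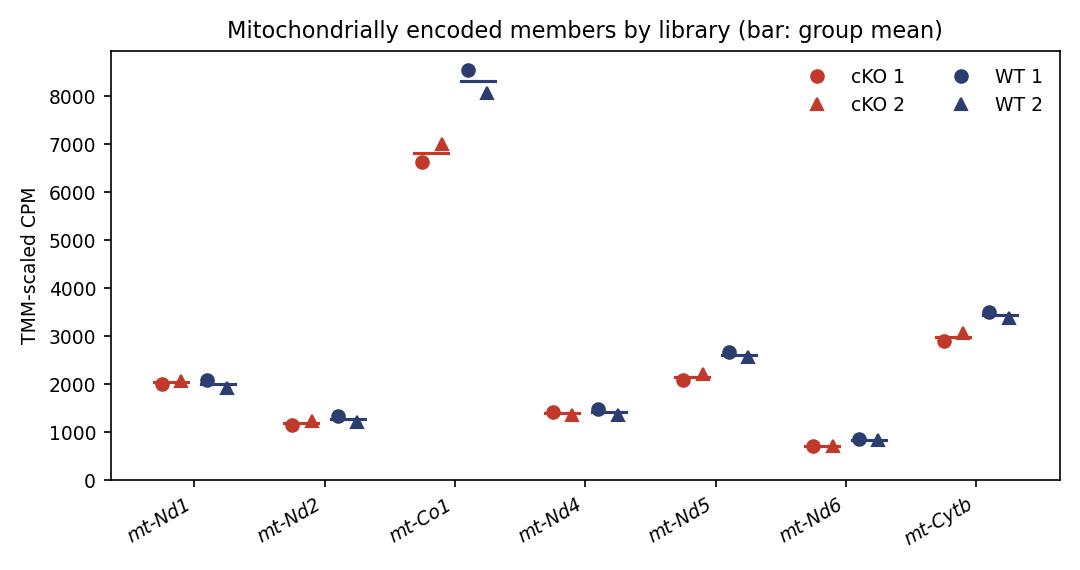
TMM-scaled CPM of the 7 well-counted mitochondrially encoded members in each library (points) with group means (bars), in the order of the genes along the mitochondrial DNA. Both cKO libraries lie below both WT libraries for mt-Co1, mt-Nd5, mt-Nd6 and mt-Cytb, and the groups overlap for mt-Nd1, mt-Nd2 and mt-Nd4.

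The make-up of the mitochondrially encoded counts differed with genotype as well as their sum. The sum over the 10 members was 16934 and 17696 CPM in cKO, against 20508 and 19372 CPM in WT, a mean of 17315 ± 539 in cKO and 19940 ± 803 in WT (SD, n = 2 each), and 13.2% lower in cKO. The share of this sum taken by mt-Nd1 was 11.9% and 11.7% in cKO, against 10.2% and 9.93% in WT. The share of mt-Nd4 was 8.43% and 7.75% in cKO, against 7.27% and 7.05% in WT. In contrast, mt-Co1 took 39.2% and 39.6% in cKO, against 41.7% in both WT libraries. For each of these shares the groups did not overlap, while the share of mt-Cytb was 17.1% and 17.3% in cKO and 17.1% and 17.4% in WT. These sums and shares are descriptions with no test.

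**Figure D3:**
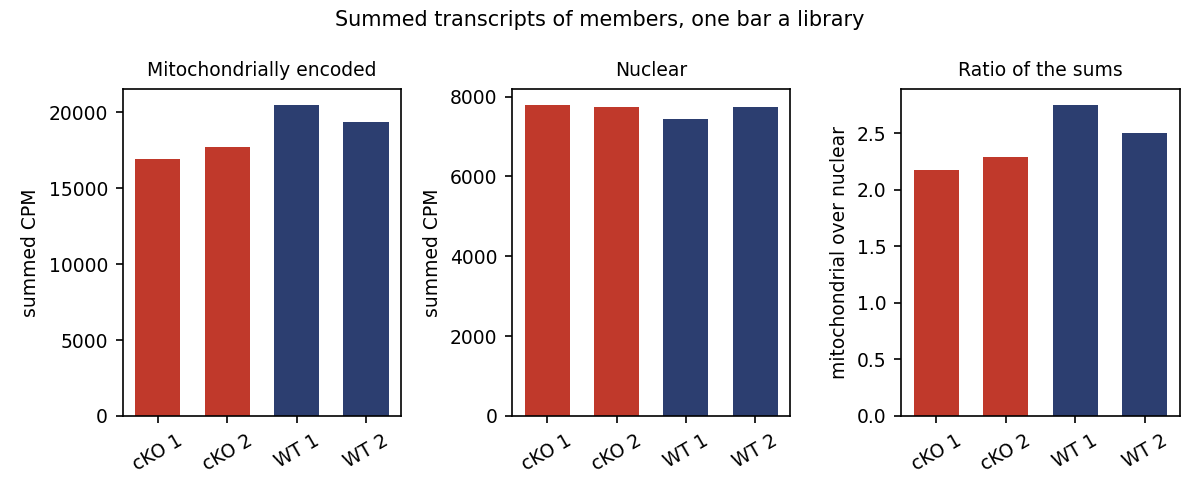
Summed TMM-scaled CPM of the mitochondrially encoded members, of the nuclear members, and the ratio of these sums, with 1 bar a library. The ratio was 2.17 and 2.29 in cKO and 2.75 and 2.51 in WT.

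The nuclear sum moved little, with 7801 and 7742 CPM in cKO and 7448 and 7731 CPM in WT. Accordingly, the ratio of mitochondrially encoded to nuclear counts was 2.17 and 2.29 in cKO, against 2.75 and 2.51 in WT. The mitochondrial rRNAs, which are not members, were counted from poly(A)-enriched RNA, so their CPM need not follow their amount in the tissue. Their CPM were lower in each cKO library than in each WT library without passing. For mt-Rnr1 they were 1024 and 828 CPM in cKO, against 1133 and 1100 CPM in WT (adjusted p = 0.0671). For mt-Rnr2 they were 1450 and 1186 CPM in cKO, against 1539 and 1470 CPM in WT (adjusted p = 0.217).

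Several features of the libraries ran with genotype beside the mitochondrial values. Unaligned entries were 0.766% and 0.779% in cKO, against 1.36% and 1.43% in WT, and Gm42418 had 651 and 707 CPM in cKO, against 2944 and 4650 CPM in WT. CT010467.1, which overlaps Gm42418 on the opposite strand, had 313 and 352 CPM in cKO, against 1340 and 2123 CPM in WT. Lars2 had 85.1 and 91.5 CPM in cKO, against 331 and 363 CPM in WT. Of the cell type lists, 6 of 11 markers of mature granule neurons fell, with sums of 6764 and 6310 CPM in cKO, against 7388 and 7736 CPM in WT. In that list 3 markers had positive log2 fold changes. Of 6 oligodendrocyte markers 3 fell and 1 had a positive log2 fold change, with sums of 7830 and 7884 CPM in cKO, against 9086 and 8641 CPM in WT. Of 6 markers of Bergmann glia and astrocytes 3 fell, with sums of 3513 and 3408 CPM in cKO, against 3981 and 3919 CPM in WT. The other 3 had positive log2 fold changes, up to 0.18, and 1 was higher at an unadjusted p under 0.05. Over all tested genes 2.17% fell. The part of these features in the mitochondrial values was not tested.

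Of the 13 mitochondrial protein-coding genes, 6 had 16 counts or fewer in every library. For 5 of them another gene matched nearly the whole transcript at 98% identity or more over at least 150 bp, and the counting dropped reads that aligned to more than 1 place. The matching genes lie together on chromosome 1, in a nuclear copy of part of the mitochondrial DNA. They covered 99.6% of mt-Co2 (Gm28661), 99.9% of mt-Co3 (Gm28437), 99.6% of mt-Atp6 (Gm10925), 99.1% of mt-Nd3 (Gm28438) and 99.0% of mt-Nd4l (Gm10222). Counts of mt-Co2 were 16 and 8 in cKO and 16 and 16 in WT, of mt-Co3 10 and 14 in cKO and 14 and 13 in WT, and of mt-Atp6 9 and 12 in cKO and 15 and 5 in WT. Their log2 fold changes had SEs of 0.49 to 0.59, and these counts say nothing of how much of the transcripts the tissue held.

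How alike the copies are is shown by the first bases of mt-Nd3 (GRCm38, chrM:9459-9481, plus strand) and of Gm28438 (chr1:24613097-24613119, minus strand), printed from the GENCODE transcripts with the only base that differs in capitals. Counted from the first base of mt-Nd3 the difference is T3C, and 344 of 345 compared bases were identical.
mt-Nd3: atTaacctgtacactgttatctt
Gm28438: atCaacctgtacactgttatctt
Reads that begin after that base and end within the compared bases match both genes. Of the measured transcripts, mt-Nd4 was matched over 63.6% of its length (Gm28439) and mt-Co1 over 31.3% (Gm29216), so their levels rest on the remaining bases, whereas mt-Nd1, mt-Nd2, mt-Nd5, mt-Nd6 and mt-Cytb had no such match. The remaining gene, mt-Atp8, had no match among annotated transcripts and was listed at 0 in all 4 libraries.

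**Figure D4:**
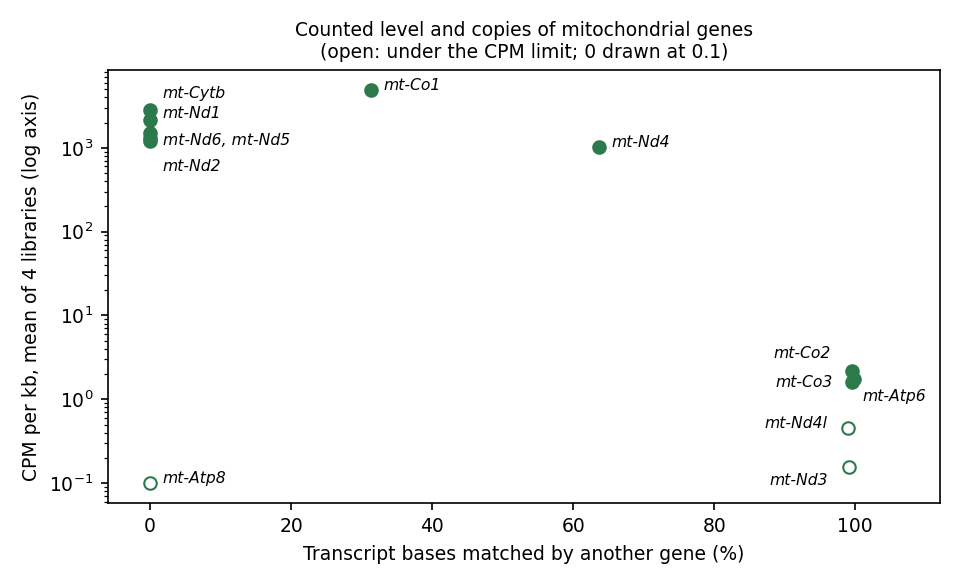
Mean level per kilobase over the 4 libraries (log axis) of the 13 mitochondrial protein-coding genes against the percentage of the transcript matched by another gene; open points missed the CPM limit, and mt-Atp8, at 0, is drawn at 0.1. The 5 genes matched over 99.0% or more lie at 2.18 CPM per kb or less, while mt-Co1, at 31.3%, had 4898 CPM per kb.

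The other symbols that matched and missed the CPM limit were nuclear. Among them Ndufs3, Uqcrc1 and Atp5a1, which encode subunits of complexes I, III and V found in all respiring cells, were listed at 0 in all 4 libraries. Of the Ndufs3 transcript 75.7% was matched by Gm12251, whereas no such match was found for Uqcrc1 or Atp5a1. The cause was not tested, and these 3 genes were not analysed further. The rest were Cox6a2, Cox8b, Cox8c, Cox7b2, Cox6c2, Ndufa11b, Ndufb4c and Ndufs6b, each with at most 6 counts in a library. Just inside the limit were mt-Atp6 (1.10 CPM on average) and mt-Co3 (1.37 CPM), and just outside it Ndufb4c (0.407 CPM) and Cox6a2 (0.301 CPM).

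Turning to the nuclear genome, 32 of 77 members had both cKO libraries above both WT libraries and 11 had both below. The same ordering was found for 23.2% of all tested genes above and 23.2% below, against 41.6% and 14.3% of the nuclear members. Of the 23 nuclear members over 100 CPM only 5 (21.7%) had both cKO libraries above, near the share of all genes, and their median log2 fold change was -0.01. Most of these differences were small, and 74 of 77 nuclear members did not pass. DESeq2 called only Ndufb8 among the nuclear members, and limma-voom called the same 3 as edgeR. The summed level of progenitor markers was 194 and 311 CPM in cKO, against 139 and 163 CPM in WT. Of 7 tested progenitor markers 4 rose, beside 1.87% of all tested genes. Another 2 had both cKO libraries below both WT libraries, with log2 fold changes down to -0.59 and 1 at an unadjusted p under 0.05. Atoh1 itself stayed at 2.02 CPM or less in every library. The part of the progenitor markers in the nuclear values was not tested.

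The members that rose encode small subunits. Ndufb8 (chr19:44548572-44555440, minus strand) encodes an accessory subunit of the distal membrane arm of complex I. It had 42.9 and 35.7 CPM in cKO, against 23.7 and 27.5 CPM in WT, and rose by 0.62 on the log2 scale (SE 0.13, adjusted p = 0.00692). It shared 4.26% of its exon bases with Gm20538 on the same strand.

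Ndufb3 (chr1:58586384-58595964, plus strand), a second accessory subunit of the membrane arm, had 29.3 and 32.9 CPM in cKO, against 23.7 and 19.7 CPM in WT. It rose by 0.52 (SE 0.14, adjusted p = 0.0352). Atp5e (chr2:174461072-174464105, minus strand) encodes the epsilon subunit in the central stalk of ATP synthase, and had 69.1 and 65.8 CPM in cKO, against 54.1 and 53.2 CPM in WT. It rose by 0.33 (SE 0.09, adjusted p = 0.0452). For Ndufb8, Ndufb3 and Atp5e alike the groups did not overlap, and neither Ndufb3 nor Atp5e shared exon bases with another gene.

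**Figure D5:**
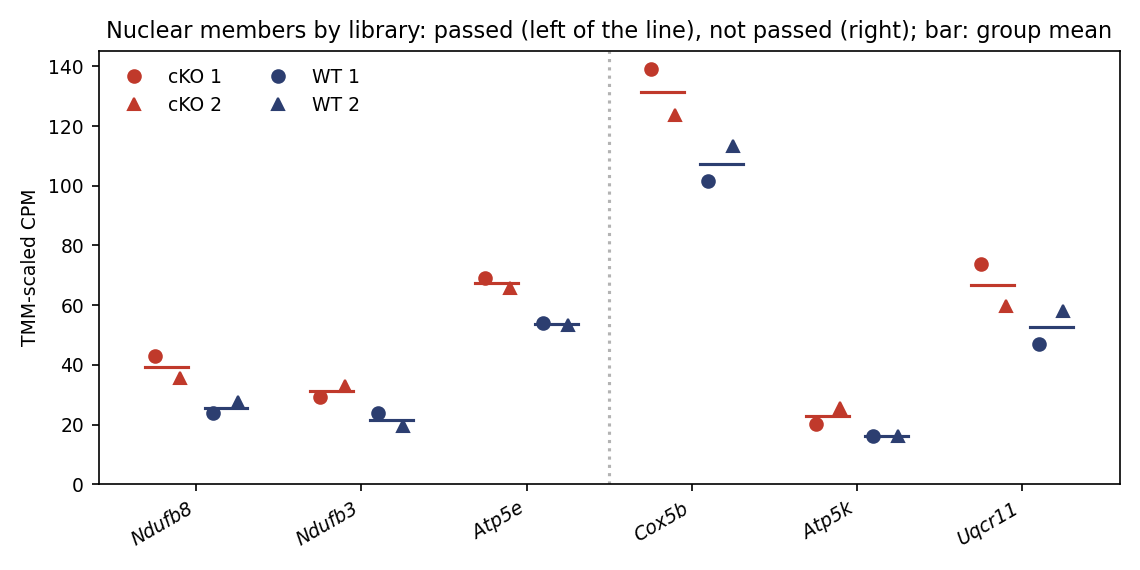
TMM-scaled CPM of 6 nuclear members in each library (points) with group means (bars): Ndufb8, Ndufb3 and Atp5e, which passed, and Cox5b, Atp5k and Uqcr11, which did not. Both cKO libraries lie above both WT libraries for all 6, by the smallest margin for Uqcr11 (59.8 CPM in cKO 2 against 58.2 CPM in WT 2).

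Leaving out 1 library at a time kept the signs of these changes but not the calls. The log2 fold change ranged from 0.48 to 0.75 for Ndufb8, from 0.39 to 0.66 for Ndufb3 and from 0.29 to 0.37 for Atp5e. For mt-Nd5 it ranged from -0.32 to -0.24, for mt-Co1 from -0.325 to -0.24 and for mt-Nd6 from -0.26 to -0.25. Without cKO 1 or without cKO 2 no gene of the whole table passed, so no member was called. Without WT 1, which left libraries with one pattern of sex-linked genes, Ndufb3, mt-Co1 and mt-Nd5 passed, and without WT 2 Ndufb8, Uqcr11, mt-Co1, mt-Nd5 and mt-Cytb did.

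The start regions of the 3 genes that rose are shown because nuclear respiratory genes are known for start-proximal sites of NRF1, GABPA and other ETS factors, YY1 and the oestrogen-related receptors (ERR). Each window runs from 250 bases before to 50 after the RefSeq start (GRCm38.p6), 5′ to 3′ on the gene's strand. Capitals mark exact matches, on either strand, to CGCATGCG (NRF1 core, a palindrome), CCGGAAG (ETS core), AAGATGGC (YY1 core) or AAGGTCA (ERR core). The windows are chr19:44555393-44555692 for Ndufb8, chr1:58586147-58586446 for Ndufb3 and chr2:174464052-174464351 for Atp5e.
Ndufb8: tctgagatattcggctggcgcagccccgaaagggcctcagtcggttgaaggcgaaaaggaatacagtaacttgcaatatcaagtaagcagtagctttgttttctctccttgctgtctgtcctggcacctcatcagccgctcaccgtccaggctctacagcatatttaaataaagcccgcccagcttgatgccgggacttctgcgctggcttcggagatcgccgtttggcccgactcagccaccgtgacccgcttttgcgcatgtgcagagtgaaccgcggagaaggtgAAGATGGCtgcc
Ndufb3: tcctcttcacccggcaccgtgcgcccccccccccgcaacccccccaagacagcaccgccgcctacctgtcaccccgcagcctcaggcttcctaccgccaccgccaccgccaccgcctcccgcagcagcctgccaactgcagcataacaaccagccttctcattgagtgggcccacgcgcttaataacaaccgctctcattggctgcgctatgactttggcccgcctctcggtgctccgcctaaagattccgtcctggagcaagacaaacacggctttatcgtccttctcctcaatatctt
Atp5e: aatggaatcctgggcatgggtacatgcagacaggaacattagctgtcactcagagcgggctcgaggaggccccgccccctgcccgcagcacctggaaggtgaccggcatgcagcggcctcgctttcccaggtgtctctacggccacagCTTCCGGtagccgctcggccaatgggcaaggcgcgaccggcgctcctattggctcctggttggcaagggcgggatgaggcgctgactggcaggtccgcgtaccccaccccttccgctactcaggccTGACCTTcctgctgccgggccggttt
Ndufb8 held 1 match, to the YY1 core at bases 289 to 296 of the window. Atp5e held the reverse complement of the ETS core at bases 149 to 155 and that of the ERR core at bases 275 to 281. None of these letters was found in the window of Ndufb3.

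Across the nuclear members, 64 of 77 matched a gene of the promoter table by symbol or synonym. The ETS core was found in 23.4% of them, the YY1 core in 15.6%, the NRF1 core in 12.5% and the ERR core in 12.5%. Over all 27025 genes of the table these shares were 9.93%, 3.19%, 2.07% and 5.38% for the same motifs. Members whose cKO libraries were both above WT (28 with a window) held the ETS core in 21.4%, the YY1 core in 17.9% and the NRF1 and ERR cores in 14.3% each. For the other 36 the shares were 25.0% for the ETS core, 13.9% for the YY1 core, and 11.1% for the NRF1 and ERR cores. The motif matches describe the letters only.

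Complex I (NADH dehydrogenase) has nuclear subunits of both core and accessory roles, and 2 of its 34 nuclear members, both accessory, rose. The 28 accessory subunits, which surround the catalytic core and serve its assembly and stability, had log2 fold changes from -0.18 to 0.62 with a median of 0.13. Of these, 13 (46.4%) had both cKO libraries above both WT libraries and 3 (10.7%) had both below, beside 23.2% each way over all genes, and 9 were higher at an unadjusted p under 0.05, beside 7.81% of all genes. The 6 nuclear core subunits that carry the flavin, the iron-sulphur clusters and the quinone site ranged from -0.13 to 0.07, with SEs up to 0.0984 and a median of -0.03. The difference between core and accessory sets was not tested.

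Behind Ndufb8 and Ndufb3 the smallest p in complex I was that of Ndufb6, a membrane-arm subunit with 40.8 and 33.5 CPM in cKO, against 28.5 and 28.6 CPM in WT (0.38, adjusted p = 0.0943). It shared 39.0% of its exon bases with Smim27 on the opposite strand. Chosen after their values were seen, Ndufs6, a zinc-binding matrix-arm subunit, had 26.7 and 25.0 CPM in cKO, against 19.96 and 20.95 CPM in WT (0.34, adjusted p = 0.199), and Ndufa8, a subunit on the intermembrane side, had 62.0 and 60.8 CPM in cKO, against 52.1 and 54.2 CPM in WT (0.21, adjusted p = 0.264). Both cKO libraries lay below both WT libraries for the accessory subunits Ndufa11 (-0.18), Ndufa7 (-0.17) and Ndufa9 (-0.14), none of which passed. The highest level per kilobase among nuclear complex I members was that of Ndufc2 (83.7 CPM per kb), whose groups overlapped at 70.9 and 60.8 CPM in cKO and 58.8 and 62.0 CPM in WT.

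Complex II, succinate dehydrogenase, joins the citric acid cycle to the respiratory chain, and none of its 4 subunits passed or reached an unadjusted p under 0.05. The flavoprotein Sdha had 287 and 249 CPM in cKO, against 268 and 270 CPM in WT (-0.01, SE 0.07, adjusted p = 0.984). The iron-sulphur subunit Sdhb had 71.1 and 70.3 CPM in cKO, against 78.5 and 74.0 CPM in WT (-0.11, adjusted p = 0.581). The membrane anchors went opposite ways, with 85.8 and 89.6 CPM in cKO against 95.4 and 96.3 CPM in WT for Sdhc (-0.13, adjusted p = 0.460), and 69.0 and 74.2 CPM in cKO against 66.9 and 66.8 CPM in WT for Sdhd (0.10, adjusted p = 0.644).

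Complex III passes electrons from ubiquinol to cytochrome c. Its small subunit Uqcr11 had 73.9 and 59.8 CPM in cKO, against 47.1 and 58.2 CPM in WT (0.35, SE 0.11, adjusted p = 0.0967), and Uqcr10 had 60.1 and 60.6 CPM in cKO, against 50.6 and 58.4 CPM in WT (0.15, adjusted p = 0.504). By contrast, the large subunit Uqcrc2 had 139 and 130 CPM in cKO, against 147 and 155 CPM in WT (-0.17, SE 0.08, adjusted p = 0.267), and 19.7% of its exon bases were shared with Pdzd9. None of the 7 nuclear members of complex III passed. At an unadjusted p under 0.05, 1 was higher and 1 lower, beside 7.81% higher and 8.5% lower over all tested genes. Of the 7, 4 had both cKO libraries above WT and 1 had both below, beside 23.2% of all genes each way.

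Complex IV had a median of 0.00 over 15 nuclear members, none of which passed. At an unadjusted p under 0.05, 2 were higher and 1 lower, beside 7.81% higher and 8.5% lower over all tested genes. Cox5b, a subunit on the matrix side, came closest with 139 and 124 CPM in cKO, against 102 and 113 CPM in WT (0.29, SE 0.08, adjusted p = 0.0548), and a gene on chromosome 13 (Gm11273) matched 45.1% of its transcript. Cox7c had 103 and 109 CPM in cKO, against 91.1 and 95.1 CPM in WT (0.19, adjusted p = 0.24).

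Several complex IV subunits exist as tissue isoforms, and the common isoforms were the abundant ones per length in both genotypes. Cox8a, with 456 CPM per kb, was the highest nuclear member, with 258 and 292 CPM in cKO, against 271 and 307 CPM in WT (-0.07, adjusted p = 0.709). Cox6a1 had 373 CPM per kb, Cox4i1 209.8, Cox6b1 176, Ndufa4 125 and Cox7a2 97.0, and their log2 fold changes ranged from -0.09 to 0.07. The muscle isoform Cox7a1 was low, at 2.62 and 2.58 CPM in cKO, against 3.99 and 4.97 CPM in WT (-0.78, SE 0.34, adjusted p = 0.242). The isoforms Cox4i2 (3.61 CPM per kb), Cox6b2 (4.73 CPM per kb) and Ndufa4l2 (2.25 CPM per kb) overlapped between groups, and the muscle isoforms Cox6a2 and Cox8b and the testis isoform Cox8c stayed under the CPM limit. Summed striated muscle markers were at 6.35 and 4.82 CPM in cKO, against 9.92 and 7.99 CPM in WT, and 2 of 4 tested markers fell (list median -1.52). Their part in the Cox7a1 values was not tested.

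In complex V, the ATP synthase, the catalytic beta subunit Atp5b was the most abundant nuclear member of the complex per length at 257 CPM per kb. It had 1116 and 1071 CPM in cKO, against 1045 and 1122 CPM in WT, with a log2 fold change of 0.01 and a 95% interval from -0.12 to 0.15. Atp5k, subunit e at the dimer interface in the membrane, had 20.2 and 25.5 CPM in cKO, against 16.3 and 16.1 CPM in WT (0.49, SE 0.16, adjusted p = 0.0844). The genes Atp5g1, Atp5g2 and Atp5g3 encode the same mature c subunit of the rotor ring. Of these Atp5g3 had 188 and 181 CPM in cKO, against 159.5 and 168 CPM in WT (0.17, adjusted p = 0.239), Atp5g2 50.4 and 50.3 CPM in cKO, against 47.0 and 47.9 CPM in WT (0.08, adjusted p = 0.748), and Atp5g1 116 and 111 CPM in cKO, against 117 and 126 CPM in WT (-0.09, adjusted p = 0.627).

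The rule also took Cox7a2l, known as a factor that joins complexes III and IV into supercomplexes, and Atp5s, which is no subunit of the synthase. Cox7a2l had 69.9 and 67.9 CPM in cKO, against 62.0 and 63.1 CPM in WT (0.14, adjusted p = 0.469). Atp5s was at 9.88 and 11.4 CPM in cKO, against 11.2 and 10.3 CPM in WT (-0.01, adjusted p = 0.986).

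Among the members on the X chromosome, Ndufa1 had 23.7 and 28.8 CPM in cKO, against 20.2 and 21.2 CPM in WT (0.34, adjusted p = 0.220). Ndufb11 had 65.7 and 68.0 CPM in cKO, against 58.7 and 63.9 CPM in WT (0.12, adjusted p = 0.545), and Cox7b 72.0 and 72.7 CPM in cKO, against 68.3 and 69.5 CPM in WT (0.07, adjusted p = 0.759). All 3 had both cKO libraries above both WT libraries, beside 41.6% of the nuclear members and 23.2% of all tested genes. None of the 3 passed, and without WT 1 their log2 fold changes kept a positive sign.

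Across the 77 genes, which are not independent replicates and share the same libraries, the log2 fold change had a Spearman correlation of -0.31 with exon length and -0.29 with mean CPM. Over all tested genes these correlations were 0.00 and -0.04. Of the 39 nuclear members with exons of 1550 bp or less 21 (53.8%) had both cKO libraries above both WT libraries and 3 (7.69%) both below, beside 21.6% and 20.4% of all tested genes of such length. Of the 38 longer ones 11 (28.9%) were above and 8 (21.1%) below, beside 23.4% and 23.6% of all longer genes. With offsets for GC content and length in the fit, Ndufb8, Ndufb3 and Atp5e still passed and the nuclear median was 0.06. Those offsets were drawn over all tested genes, where the correlation with length was 0.00. They therefore cannot show the part of length among the members, which was not tested.

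Among genes that regulate mitochondrial biogenesis, 1 of 16 rose and 1 fell, beside 1.87% and 2.17% of all tested genes. Of the 16, 2 (12.5%) had both cKO libraries above both WT libraries and 3 (18.75%) had both below, beside 23.2% each way over all tested genes. Esrra, which encodes the nuclear receptor ERR alpha, an activator of respiratory genes, had 77.9 and 72.6 CPM in cKO, against 55.0 and 56.0 CPM in WT, and rose by 0.44 (SE 0.09, adjusted p = 0.00601). Ppargc1b, which encodes PGC-1 beta, a coactivator of such receptors, had 25.0 and 19.5 CPM in cKO, against 33.8 and 34.9 CPM in WT, and fell by 0.62 (SE 0.14, adjusted p = 0.00989). The groups did not overlap for either gene, and Ppargc1a, the related coactivator, had 51.1 and 48.2 CPM in cKO, against 57.9 and 58.1 CPM in WT without passing (-0.22, adjusted p = 0.24).

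No gene passed in 6 of the other pathway lists. These were the 48 tested assembly factors of the complexes, 11 subunits and partners outside the symbol rule such as Cycs and Cyc1, 26 genes of mitochondrial transcription, replication and RNA handling, 75 mitochondrial ribosomal proteins, 22 genes of the citric acid cycle and pyruvate entry, and 10 genes of ATP export and use of the proton gradient. At an unadjusted p under 0.05 these lists held 2, 0, 0, 1, 0 and 1 genes higher in cKO, and 1, 0, 1, 2, 2 and 0 lower. Over all tested genes 7.81% were higher and 8.5% lower at that p. Of the mitochondrial transcription genes, Tfam, which packages and transcribes the mitochondrial DNA, had 29.1 and 26.3 CPM in cKO, against 26.3 and 29.0 CPM in WT (0.00, SE 0.13). Polrmt, the mitochondrial RNA polymerase, had 50.5 and 44.6 CPM in cKO, against 45.2 and 51.1 CPM in WT (-0.02, SE 0.11).

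Of 19 glycolysis genes 2 fell, none rose and 17 did not pass, with a list median of -0.14 and log2 fold changes from -0.31 to 0.40. At an unadjusted p under 0.05 there were 8 lower and 1 higher, beside 8.5% lower and 7.81% higher over all tested genes. Both cKO libraries lay below both WT libraries for 47.4% of the list and above for 5.26%, beside 23.2% each way over all tested genes. Gapdh had 1010 and 1033 CPM in cKO, against 1260 and 1216 CPM in WT, and fell by 0.28 (SE 0.07, adjusted p = 0.0189). Aldoc, the brain aldolase, which is enriched in astrocytes and a subset of Purkinje cells, had 1362 and 1168 CPM in cKO, against 1605 and 1524 CPM in WT, and fell by 0.31 (SE 0.07, adjusted p = 0.0199). Of the citric acid cycle genes 17 of 22 had a negative log2 fold change, beside 8185 of 16617 tested genes. The list median was -0.07, and none passed. Both cKO libraries lay below both WT libraries for 36.4% of these 22 genes and above for 13.6%, beside 23.2% each way over all tested genes.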

How the data were processed

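RNA-seq libraries of cerebellum at postnatal day 14 (2 cKO, 2 WT) were grouped by sample title. The authors' methods and processing notes name Trimmomatic 0.38 for trimming, STAR 2.7.2b for alignment to GRCm38 and HTSeq for counting over exons. The deposited values are raw counts per gene symbol. Genes held 39.0% to 40.5% of all entries, and the lines that name no gene (no feature 48.8% to 49.6%, not unique 8.97% to 9.14%, unaligned 0.766% to 1.43%, ambiguous 0.805% to 0.917%, low quality 0.0689% to 0.0764%) did not enter any library size or fit. Reads aligning to several places were not counted. How strand was treated is not given in the sources used here.

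Counts were filtered with filterByExpr, scaled by TMM and tested with edgeR 4.0.16 in R 4.3.3 (quasi-likelihood test, two-sided, Benjamini-Hochberg over 16617 genes, threshold 0.05). The common dispersion was 0.00537. CPM are TMM-scaled. Symbols were matched to GENCODE M21 for coordinates and exon lengths. Libraries of a genotype varied beyond counting error (chi-square/df 4.04 in cKO, 3.72 in WT), and with 2 mice a group precision is limited. The test was also run on counts simulated with the dispersions of the same fit, and no result given here rests on that run.

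Named genes were the mitochondrially encoded members, members past the threshold, in each complex the 3 nuclear members with the smallest p and the highest per kilobase, tissue isoforms, X-linked members, members near the CPM limit, and per pathway list up to 3 genes past the threshold; other names were added for context. Members and lists were chosen with earlier results of these data known. Further cell type lists were examined as context: Purkinje cells (1 of 6 tested markers rose, 1 fell), other inhibitory interneurons (0 rose, 1 of 6 fell), choroid plexus (3 of 8 rose, 0 fell), striated muscle (0 rose, 2 of 4 fell), red blood cells (0 of 5 in either direction), microglia (0 of 5) and endothelium (0 of 4). Alternatives covered scaling, filters, DESeq2 1.42.0, limma-voom (limma 3.58.1), a replicate block, GC and length offsets, sex-linked genes and each library left out.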

Additional observations from a re-analysis of the deposited data

How the results depend on the processing

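The count of members higher in cKO, 3 in the reported analysis, was 0 with no filter on low counts (15 at an unadjusted p under 0.05) and 1 with DESeq2. It was 7 with a replicate block and 7 with a replicate block plus GC and length offsets. The block added Atp5k, Cox5b, Ndufb6 and Uqcr11, the count of lower members stayed at 3, and the calls over all genes went up to 549 higher and 581 lower, against 310 and 361. The titles number the mice but do not say that a number pairs them, and deviations of same-numbered libraries correlated at 0.043. Leaving out 1 library gave 0 to 2 members higher and 0 to 3 lower, with 0 of each without cKO 1 or without cKO 2, where no gene of the table passed. The nuclear median was 0.0797 with library size alone and ranged from 0.0316 to 0.0723 with 1 library left out. The mitochondrially encoded median ranged from -0.25 to -0.11 with 1 library left out. With library size alone 40.2% of all calls were lower, against 53.8% with TMM. Upper-quartile scaling went the other way, with 63% lower (239 higher, 407 lower) and a nuclear median of 0.0298, against 0.0495 with TMM. Over all genes, no filter gave 71 higher and 106 lower, DESeq2 137 and 183, the block with offsets 617 and 625, and the fit without WT 1 173 and 195. Both mt-Co1 and mt-Nd5 passed in 14 of 16 alternatives, Ndufb8 in 12, Ndufb3 in 11, mt-Nd6 in 10 and Atp5e in 9, and mt-Cytb in 6, and each kept its sign in all 16. Where a genotype kept a single library, its spread was taken to be that of the remaining pair.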
